A study of Arabidopsis thaliana with 8 samples.

Results

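The genes described here are the protein-coding genes of Arabidopsis thaliana whose locus numbers fall in a central range of each of the 5 chromosomes, where the centromeres and their transposon-rich flanks lie. They were chosen by locus number, from AT1G36000 to AT1G43999, AT2G05000 to AT2G14999, AT3G29500 to AT3G43999, AT4G04000 to AT4G08999 and AT5G27500 to AT5G37999. A probe set, the group of oligonucleotides that reads one transcript, was kept when the array's annotation paired it with a single protein-coding gene. Coding genes of the ranges without such a probe set are missing here, and 8794 of the array's 22810 probe sets are paired with no gene. The choice gave 580 genes, read by 585 probe sets, out of 22746 probe sets tested, with 61, 140, 103, 97 and 184 probe sets on chromosomes 1, 2, 3, 4 and 5. QQS, ANX2, AT1G36240 and AT5G33370 lie in the ranges and were left out by name under the rule. The choice was made with earlier results of these data known.

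Transcripts were measured in inflorescences of flower stages 9 to 12 on Affymetrix ATH1 arrays, with 2 biological replicates for each of 4 genotypes: ddm1-2, the double mutant ddm1-2 rdr6-15, rdr6-15, and Col-0, the wild type. All plants were grown in long days. Labelled RNA for an array was made from 6 ug of total RNA, and the tissue behind it was pooled, with an n of 3 stated in the labels. Whole inflorescences were sampled, so fewer cells of a type and less RNA per cell cannot be told apart. Values are log2 signals, and a difference of 1 log2 unit is a doubling of signal.

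DDM1 is a chromatin remodeller that lets DNA methylation reach nucleosome-bound heterochromatin and so keeps transposons silent. RDR6, an RNA-dependent RNA polymerase, copies cleaved transcripts into double-stranded RNA, the source of secondary small interfering RNAs, which in ddm1 mutants also arise from reactivated transposons. The chromatin beside the centromeres is heavily methylated and full of transposon remnants, some of them annotated as pseudogenes, with ordinary genes scattered among them. The comparisons ask whether those genes respond to the loss of DDM1 in plants that have RDR6 and in plants that lack it.

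The arrays had median log2 signals of 3.73 to 3.81. The 7 arrays other than rdr6-15 replicate 1 resembled each other, whereas the correlation of rdr6-15 replicate 1 with any of them was 0.852 to 0.879 over all probe sets. That array stands apart from its own replicate too. Counts of calls are given with and without it, as are some of the values that lean on it. The annotation used names no probe set of DDM1 or RDR6, so the mutations themselves were not checked, and it names none of the 8 floral or 4 leaf marker genes listed for a check of the tissue. Of 609 probe sets for annotated pseudogenes of the same ranges, 44 were called higher in ddm1-2 than in Col-0 (7.22%, against 0.404% of all probe sets) and 0 lower (0.171% of all), while the median difference of the 609 was -0.03.

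The label of a location near the centromeres was set against the gene order of the TAIR10.1 reference table. An annotated pseudogene was the direct neighbour of 334 of the 585 probe sets' genes (57.1%), against 7.26% of 11824 probe sets of coding genes elsewhere. Of the 585, 247 had a pseudogene on 1 side, 87 on both sides and 251 on neither. A total of 549 probe sets are specific to one transcript by their type and 36 are shared with related sequences, whose signals cannot be split.

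Fewer of these genes than of coding genes elsewhere gave a signal above the array's controls. Bacillus transcripts, absent from plants, have 27 control probe sets on the array, and the highest of their means, 3.56, is called the control level. Of 585 probe sets, 350 (59.8%) had means at or below it in all 4 genotypes and 235 (40.2%) exceeded it in at least 1, compared with 57.4% of coding genes elsewhere. The share depends on the level taken, since with the second highest Bacillus mean, 2.76, it was 69.1%, compared with 82.7% of coding genes elsewhere. With the level of 3.56 the count above it was 202 in ddm1-2 and 209 in ddm1-2 rdr6-15, against 217 in rdr6-15 and 202 in Col-0. Among pseudogenes of the same ranges the share above the level was 18.1% in ddm1-2 and 15.1% in ddm1-2 rdr6-15, against 7.88% in rdr6-15 and 4.43% in Col-0. Genes with a pseudogene on both sides exceeded the level in 19.5% of cases, against 43.3% with a pseudogene on 1 side and 44.2% with none. The differences between these shares were not tested.

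A few genes crossed the control level with the DDM1 genotype. AT1G36756, AT2G14460, AT5G28560 and AT5G35760 had means above it in ddm1-2 and in ddm1-2 rdr6-15 and at or below it in rdr6-15 and Col-0. AT2G13290, AT3G43430 and AT4G04650 did the opposite. These are crossings of means, and the means of AT2G13290 lay only between 3.32 and 3.75. Single arrays overlapped for AT3G43430, which read 3.30 on rdr6-15 replicate 1, against 3.46 and 3.36 in ddm1-2 rdr6-15. The split of 4 against 3 of 585 stood beside 66 against 76 of 11824 for coding genes elsewhere. Among all 22746 probe sets there were 194 against 138, and among the 609 pseudogene probe sets 48 against 1. The split of the 585 turned to 5 against 8 with the second highest Bacillus mean as the level. There all probe sets gave 132 against 297 and the pseudogenes 42 against 3.

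In the comparison of ddm1-2 with Col-0, 0 of the 585 probe sets were called at an adjusted p under 0.05 (limma's moderated test, two-sided, Benjamini-Hochberg over all probe sets tested), while 0.576% of all probe sets were. At an unadjusted p under 0.05, 29 passed (4.96%), 10 higher and 19 lower in ddm1-2, against 9.13% of all probe sets. The median difference was -0.07, with quartiles at -0.22 and 0.10, and the extremes were -3.18 and 1.55. A difference of 1 log2 unit or more was seen upward in 2 probe sets (0.342%, against 1.36% of all) and downward in 8 (1.37%, against 2.21% of all). The count of 0 owes something to the choice of genes, because QQS and AT1G36240, left out by the rule, were both called higher in ddm1-2. With the 4 left-out loci restored the count was 2 of 589 (0.34%). Precision also limits the count, since the 95% interval of the difference stayed within 1 log2 unit of 0 for 466 of 585 probe sets (79.7%) and reached further for the others. The 585 include the 350 with means at or below the control level in all 4 genotypes. For those a narrow interval bounds the signal and not the change in transcript.

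**Figure D1:**
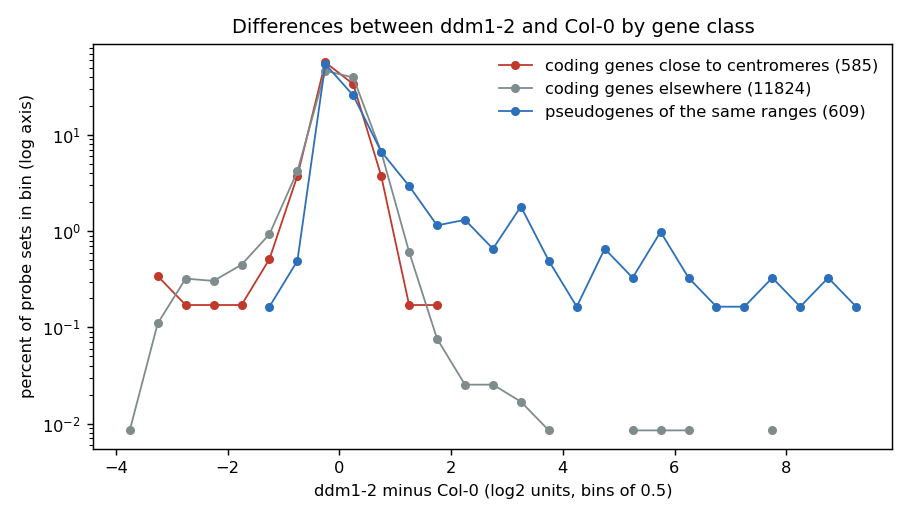
Percent of probe sets per bin of 0.5 log2 units (vertical log axis) against the difference of ddm1-2 minus Col-0 in log2 units, for coding genes close to the centromeres, coding genes elsewhere and pseudogenes of the same ranges. Empty bins are not drawn. The coding genes close to the centromeres end at 1.55, while the pseudogenes of the same ranges reach 9.03.

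AT5G28560 was the gene nearest to a call as higher in the mutants. Its signal was 3.92 and 4.45 in ddm1-2 and 3.66 and 4.29 in ddm1-2 rdr6-15, against 2.97 and 2.85 in rdr6-15 and 2.66 and 2.62 in Col-0. All 4 ddm1-2 arrays lay above the 4 others, by the widest gap of the 585 probe sets, 0.69 log2 units. The fitted difference of ddm1-2 minus Col-0 was 1.55 ± 0.27 (SE, n = 2 each) with an adjusted p of 0.0859 from limma. Because the Col-0 signal is below the control level, the ddm1-2 signal is given as at least 1.55-fold higher. Such a bound sets a mean against the control level and leaves out the spread between arrays. Averaged over both RDR6 genotypes the effect was 1.31 ± 0.19 (SE) with a limma adjusted p of 0.051, which ranged from 0.00286 to 0.335 over 14 alternatives and was under 0.05 in 5 of them. The reference tables give this locus no name.

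THI2.2 encodes a thionin, one of the small cysteine-rich antimicrobial peptides of plants. It read 5.25 and 5.37 in ddm1-2 and 4.81 and 4.71 in ddm1-2 rdr6-15, against 3.34 and 4.57 in rdr6-15 and 4.17 and 4.24 in Col-0. The 4 ddm1-2 arrays lay above the 4 others, and the 95% interval of ddm1-2 minus Col-0 was 0.23 to 1.97, with a limma adjusted p of 0.41. AT3G30820 read 3.16 and 3.18 in ddm1-2 and 2.54 and 2.31 in ddm1-2 rdr6-15, against 2.57 and 2.29 in rdr6-15 and 2.30 and 2.28 in Col-0. Its ddm1-2 arrays alone were higher, but every value is under the control level, so no fold is given (limma adjusted p for ddm1-2 against Col-0, 0.127).

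The low side held larger differences. The signal of scpl38, a serine carboxypeptidase-like protein gene, was 3.98 and 3.39 in ddm1-2 and 4.13 and 1.98 in ddm1-2 rdr6-15, against 2.46 and 5.34 in rdr6-15 and 6.59 and 7.13 in Col-0. GH9A4, a glycoside hydrolase of the endoglucanase family, read 5.81 and 4.70 in ddm1-2 and 5.40 and 3.05 in ddm1-2 rdr6-15, against 3.17 and 7.23 in rdr6-15 and 8.18 and 8.50 in Col-0. Col-0 was highest for both genes, and rdr6-15 spanned much of the range of the other genotypes. The differences of ddm1-2 minus Col-0 were -3.18 for scpl38 (limma adjusted p = 0.383) and -3.08 for GH9A4 (limma adjusted p = 0.555), not called with all arrays in the fit.

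AT5G27980 read 4.11 and 3.30 in ddm1-2 and 3.39 and 2.99 in ddm1-2 rdr6-15, against 3.60 and 5.20 in rdr6-15 and 6.14 and 6.55 in Col-0. CSLC12, a cellulose synthase-like protein of the family that makes the backbone of xyloglucan, read 2.63 and 2.38 in ddm1-2 and 2.90 and 2.58 in ddm1-2 rdr6-15, against 2.78 and 3.42 in rdr6-15 and 3.66 and 3.76 in Col-0. AT5G35090 read 2.62 and 2.55 in ddm1-2 and 2.46 and 2.43 in ddm1-2 rdr6-15, against 2.58 and 2.71 in rdr6-15 and 3.57 and 3.46 in Col-0. In all 3 genes both Col-0 arrays stood above the 6 mutant arrays, rdr6-15 included. AT5G35090 had the smallest limma adjusted p of ddm1-2 against Col-0 among the 585, 0.068, yet its means do not exceed the control level in any genotype and no fold is given. For CSLC12 the difference was -1.20 ± 0.25 (SE, limma adjusted p = 0.156), and its Col-0 mean is only just above the control level.

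**Figure D2:**
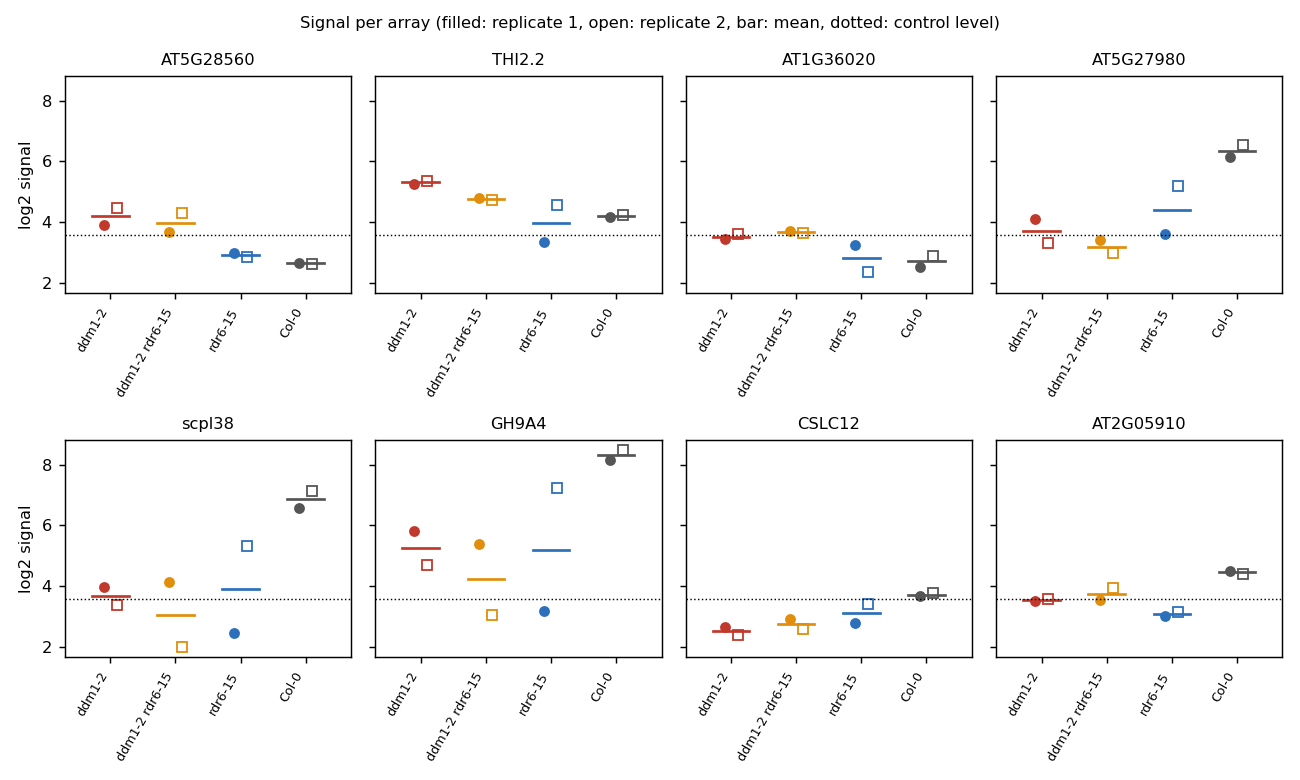
Log2 signal on each array (vertical axis) for 8 genes in ddm1-2, ddm1-2 rdr6-15, rdr6-15 and Col-0, with replicate 1 filled, replicate 2 open, the mean as a bar and the control level of 3.56 dotted. AT5G28560, THI2.2 and AT1G36020 are higher on the 4 ddm1-2 arrays, and in the other genes Col-0 is highest.

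Leaving out rdr6-15 replicate 1, the array that stands apart, raised the count of ddm1-2 against Col-0 to 20 of 585 (3.42%), 7 higher and 13 lower, against 4.77% of all probe sets. That count was the same without rdr6-15 replicate 2, since a lone array adds nothing to the estimate of spread, and the remaining rdr6-15 array is assumed to vary like the others. The genes were singled out after their values were seen. In this fit scpl38, GH9A4, AT5G27980, AT2G13350, AT5G27870, CSLC12, AT3G43430, AT2G05540, AT5G35090, AT2G05910, AT1G43630, AT3G43270 and AT5G34930 fell. AT5G28560, THI2.2, AT3G30820, AT3G43960, AT2G05790, AT1G36020 and AT5G28090 rose. The limma adjusted p was 0.00141 for AT5G27980, 0.0168 for scpl38, 0.0325 for GH9A4, 0.00715 for CSLC12 and 0.00527 for THI2.2. The share called was below that of all probe sets in both directions, 1.2% against 2.15% upward and 2.22% against 2.62% downward. All probe sets include the pseudogenes and the probe sets paired with no gene. Of all probe sets 59.3% exceeded the control level in at least 1 genotype, against 40.2% of the 585.

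AT2G13350 and AT5G27870 had the same array pattern as scpl38 and GH9A4. AT2G13350 read 5.19 and 4.48 in ddm1-2 and 5.09 and 3.75 in ddm1-2 rdr6-15, against 3.86 and 5.57 in rdr6-15 and 6.71 and 6.98 in Col-0. AT5G27870 read 3.79 and 3.39 in ddm1-2 and 3.62 and 2.79 in ddm1-2 rdr6-15, against 2.58 and 4.91 in rdr6-15 and 5.13 and 6.04 in Col-0. Among 5 listed genes of late pollen, 2 have a named probe set. AT59, a pectate lyase-like gene of pollen, was low on the same arrays and read 4.36 and 3.49 in ddm1-2 and 4.31 and 3.05 in ddm1-2 rdr6-15, against 2.94 and 5.44 in rdr6-15 and 6.58 and 6.93 in Col-0. MGH3, a histone H3 gene of sperm cells, read 2.86 and 2.77 in ddm1-2 and 3.13 and 2.87 in ddm1-2 rdr6-15, against 2.84 and 2.83 in rdr6-15 and 3.35 and 3.41 in Col-0. MGH3 was under the control level on every array and as low on the second rdr6-15 array as on the first. Their part in the lower signals was not tested.

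Without RDR6, the loss of DDM1 gave the same count. In ddm1-2 rdr6-15 against rdr6-15, 0 of 585 probe sets were called (0.163% of all), 21 passed an unadjusted p under 0.05 (3.59%, against 4.84% of all), and the median difference was -0.04. For the mean of both ddm1-2 effects, called the averaged effect, 0 were called (0.51% of all) and 37 passed an unadjusted p under 0.05 (6.32%, against 8.24% of all). The 95% interval of the averaged effect stayed within 1 log2 unit of 0 for 537 probe sets (91.8%), counted over all 585, those under the control level included. With the left-out loci restored, ddm1-2 rdr6-15 against rdr6-15 called 1 of 589 (0.17%), AT1G36240, as higher. The averaged effect then called 2 of 589 (0.34%), QQS and AT1G36240, both higher. Without rdr6-15 replicate 1 the averaged effect called 16 (2.76% of all probe sets were), 5 higher (1.02% of all) and 11 lower (1.75% of all), and ddm1-2 rdr6-15 against rdr6-15 called 0, against 0.33% of all.

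The ddm1-2 effects with and without RDR6 rest on different arrays. Across the 585 probe sets, which share arrays and are not independent replicates, they correlated at a Pearson r of 0.24 and a Spearman rho of 0.16, with 113 probe sets above 0 in both and 248 below 0 in both (61.7% of one sign, against 54.8% of all probe sets). Without rdr6-15 replicate 1 the Pearson r was 0.50 and the Spearman rho 0.10, with 138 above 0 in both and 151 below (49.4%, against 48.8% of all). Across the 609 pseudogene probe sets of the same ranges the Pearson r was 0.85 and the Spearman rho 0.47 with all arrays, and 0.86 and 0.46 without that array.

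**Figure D3:**
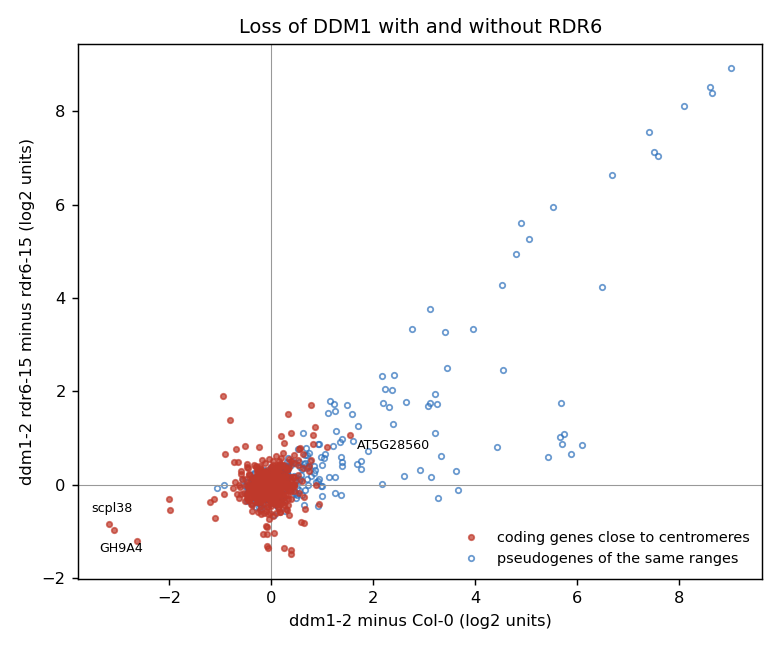
Difference of ddm1-2 rdr6-15 minus rdr6-15 (vertical axis, log2 units) against the difference of ddm1-2 minus Col-0 (horizontal axis, log2 units), 1 point per probe set, for the 585 coding-gene probe sets and the 609 pseudogene probe sets of the ranges. Coding genes gather around 0, AT5G28560 is up in both by 1.07 and 1.55, and scpl38 and GH9A4 are the lowest on the horizontal axis.

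Removal of RDR6 in the ddm1-2 background was read from the double mutant against ddm1-2. In ddm1-2 rdr6-15 against ddm1-2, 0 of 585 were called (0.0572% of all), and 8 passed an unadjusted p under 0.05 (1.37%, against 2.71% of all). Without rdr6-15 replicate 1 the count called was also 0 (0.193% of all). With all arrays, differences ran from -1.03 to 0.68. The 3 genes with the smallest p included AT3G30820, whose values are given above, and ACS, an acetyl-CoA synthetase. ACS read 7.03 and 6.62 in ddm1-2 rdr6-15 against 7.27 and 7.43 in ddm1-2, a difference of -0.52 ± 0.20 (SE, limma adjusted p = 1). The ranges did not overlap for ACS, but rdr6-15 at 7.25 and 7.24 and Col-0 at 7.09 and 7.42 lay beside ddm1-2. The 3rd, AT5G37590, has means under the control level.

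In rdr6-15 against Col-0, 0 of 585 were called (0.00879% of all), with 35 at an unadjusted p under 0.05 (5.98%, against 9.98% of all). The count called was also 0 without rdr6-15 replicate 1 (0.127% of all). With the 4 left-out loci restored, 1 of 589 was called with all arrays (0.17%). That was QQS, higher in rdr6-15 by 2.90 (limma adjusted p = 0.0453). AT2G05910 had the smallest p of the 585. Its signal was 3.51 and 3.59 in ddm1-2, 3.55 and 3.93 in ddm1-2 rdr6-15 and 3.03 and 3.13 in rdr6-15, against 4.51 and 4.41 in Col-0. Both Col-0 arrays exceeded all mutant arrays, and the rdr6-15 arrays were the lowest. The rdr6-15 signal was at least 1.87-fold lower than Col-0 (limma adjusted p = 0.128, and 0.0654 without rdr6-15 replicate 1). In ddm1-2 rdr6-15 against Col-0, 0 were called (0.312% of all) with 27 at an unadjusted p under 0.05 (4.62%, against 7.79% of all). AT5G27980 had a difference of -3.15 there, with a 95% interval of -4.41 to -1.90 (limma adjusted p = 0.0984). Its means alone, with the control level in place of the double mutant, give at least 6.91-fold lower, and the interval also allows a smaller fall. With the left-out loci restored, 2 of 589 were called in that comparison (0.34%), QQS and AT1G36240, both higher. Without rdr6-15 replicate 1 the double mutant against Col-0 called 12 (3.89% of all probe sets were), 3 higher (1.03% of all) and 9 lower (2.86% of all). The 3 comparisons with Col-0 share its 2 arrays.

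The interaction asks whether the ddm1-2 effect differs between RDR6 genotypes. It called 0 of 585 (0.00879% of all), and 14 passed an unadjusted p under 0.05 (2.39%, against 6.29% of all). It also called 0 without rdr6-15 replicate 1 (0.18% of all). With all arrays, its 95% interval stayed within 1 log2 unit of 0 for 332 probe sets (56.8%), those under the control level included, and reached further for the others. With the 4 left-out loci restored, the interaction called 1 of 589 with all arrays (0.17%). That was QQS, with a value of -4.43 (limma adjusted p = 0.0277). Among the 585, the largest interactions were those of AT2G05540, scpl38, AT4G04460, GH9A4 and GSTU27. For each of them the 2 rdr6-15 arrays lay far apart, and the value leans on rdr6-15 replicate 1. AT2G05540 read 4.20 on that array and 7.75 on the other rdr6-15 array, against 8.29 and 7.98 in Col-0. For GH9A4 these were 3.17 and 7.23, against 8.18 and 8.50, and for scpl38 2.46 and 5.34, against 6.59 and 7.13. What remains of the interaction without that array is given for AT4G04460 only. AT4G04460 read 3.37 on that array and 8.29 on the other rdr6-15 array, against 8.46 and 8.25 in Col-0, and its interaction was 2.19 with all arrays and -0.27 without it. GSTU27, a tau-class glutathione transferase, read 7.91 on that array and 5.10 on the other rdr6-15 array, against 4.69 and 4.47 in Col-0. Of the 585, AT2G05910 had the smallest interaction p, with a value of 1.57 ± 0.26 (SE, limma adjusted p = 0.253), and 1.52 without rdr6-15 replicate 1 (limma adjusted p = 0.102).

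On rdr6-15 replicate 1, 12 of the 585 probe sets lay more than 1 log2 unit above all other arrays (2.05%, against 3.63% of all) and 14 that far below (2.39%, against 4.04% of all). The high ones included MSRB6 and MSRB5, methionine sulfoxide reductases that repair oxidised proteins, and EXO, a cell wall protein gene induced by brassinosteroid. EXO read 9.20 on that array and 6.69 on the other rdr6-15 array, against 6.18 and 6.26 in Col-0. MSRB6 read 5.82 against 2.80 on the other rdr6-15 array. SCPL43, another carboxypeptidase-like gene, was low, at 3.85 against 6.16 on the other rdr6-15 array.

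Without regard to a test, the 4 arrays of ddm1-2 and ddm1-2 rdr6-15 lay wholly above the 4 others for 15 of 585 probe sets. This was 2.56%, against 3.08% of all and 2.5% of coding genes elsewhere. They lay wholly below for 12 (2.05%, against 2.08% of all and 2.2% of coding genes elsewhere). The balance of directions was not stable, with 12 above and 1 below among the 235 that exceeded the control level (4.33% and 1.64% of all such probe sets), and 26 above and 33 below without rdr6-15 replicate 1 (5.4% and 6.16% of all). Among the pseudogene probe sets of the same ranges 86 of 609 lay above. After AT5G28560 the widest gaps belonged to AT5G28090, AT5G27850, AT5G36230 and, below, AT5G35540. AT5G27850 read 9.40 and 9.59 in ddm1-2 and 9.37 and 9.45 in ddm1-2 rdr6-15, against 8.31 and 9.18 in rdr6-15 and 8.99 and 8.75 in Col-0. AT5G36230 read 8.43 and 8.47 in ddm1-2 and 8.29 and 8.41 in ddm1-2 rdr6-15, against 7.67 and 8.12 in rdr6-15 and 7.99 and 8.08 in Col-0. Both are clearly above the control level and were not called for the averaged effect, at limma adjusted p of 0.474 for AT5G27850 and 0.465 for AT5G36230.

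The averaged ddm1-2 effect had medians of -0.06, -0.06, -0.06, -0.08 and -0.05 on chromosomes 1 to 5 and 0 calls on each. It was -0.06 for genes with a pseudogene on both sides, -0.07 with a pseudogene on 1 side and -0.06 with none.

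**Figure D4:**
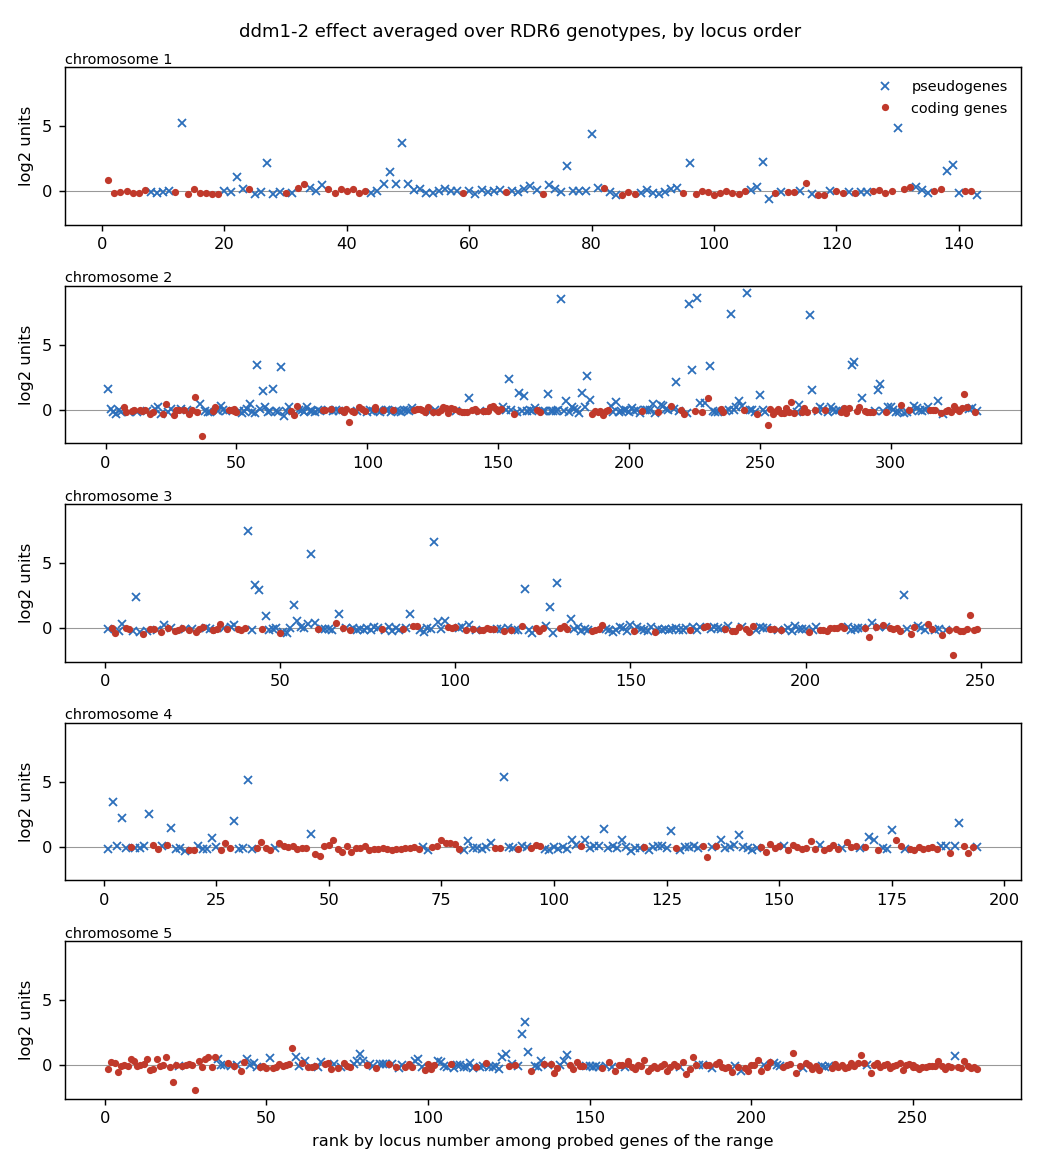
The ddm1-2 effect averaged over RDR6 genotypes (vertical axis, log2 units) for each probed gene of the ranges in order of locus number (horizontal axis, rank), by chromosome, with coding genes as dots and pseudogenes as crosses. Pseudogenes up to 8.98 are scattered among coding genes that stay near 0, and the lowest coding genes reach -2.03.

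Some of these genes sit beside a pseudogene whose transcript rose. Of 87 pseudogene probe sets called higher in ddm1-2 against Col-0, in the double mutant against rdr6-15 or Col-0, or in the averaged effect, 52 lie in the ranges. Directly beside such a pseudogene stood 5 of the 585 probe sets' genes, and 15 stood within 2 genes. In ddm1-2 against Col-0, their median was -0.08, against -0.07 for all 585, and 7 of them were above 0. An unadjusted p under 0.05 was reached by 0 of the 15, too few for a share to be set against the 9.13% of all probe sets. AT2G13150 stands next to AT2G13160, a pseudogene with a difference of 9.03, and its own difference was -0.10. AT2G12280 stands 2 genes from AT2G12300, a pseudogene at 8.62, and its own was -0.23. SEU, a transcriptional co-repressor of floral development, stands 2 genes from AT1G43840, a pseudogene at 4.81. SEU read 5.09 and 5.52 in ddm1-2 and 5.32 and 5.46 in ddm1-2 rdr6-15, against 5.25 and 5.24 in rdr6-15 and 5.10 and 5.01 in Col-0. Several of these pseudogene probe sets are of a shared type, so the transcript they read may come from related copies elsewhere.

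**Figure D5:**
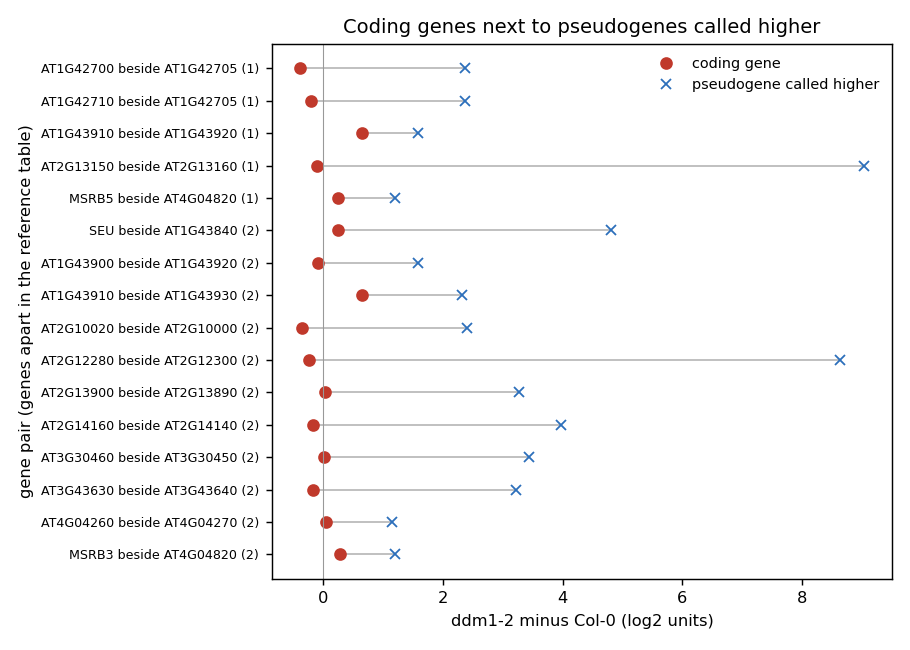
Difference of ddm1-2 minus Col-0 in log2 units (horizontal axis) for each coding gene within 2 genes of a pseudogene called higher (dots) and for that pseudogene (crosses), joined by a line, with the number of genes apart in parentheses. AT1G43910 appears in 2 pairs. The coding genes lie between -0.38 and 0.65 and each pseudogene lies to the right of its partner. Several of the coding genes are under the control level.

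The annotation gives 57 of the 585 probe sets a gene symbol, and 0 of them were called in any comparison with all arrays. Sorted by role after the values were seen, 7 are cell wall and carboxypeptidase genes, with a median difference of -0.15 in ddm1-2 against Col-0. Without rdr6-15 replicate 1, scpl38, GH9A4 and CSLC12 of this group were called lower, and SAH7, a pollen allergen-like protein gene, had a difference of 0.53 (limma adjusted p = 0.75). A group of 7 signalling, transport and defence genes had a median of -0.30, and THI2.2 was called in the fit without that array. In the other groups 0 were called in either fit. Medians, ranges and differences of the groups are for ddm1-2 against Col-0 unless another comparison is named.

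Genes of protein quality control and membrane traffic formed a group of 8, with a median of -0.10 and a range from -0.72 to 0.27. It holds BZIP60, a transcription factor of the unfolded protein response, OS9 and DER2.2 of endoplasmic-reticulum-associated degradation, and ATG8B and ATG8D of autophagosome formation. ATG8B, the member of the 8 with the lowest difference, had 4.08 and 4.41 in ddm1-2, 4.18 and 4.81 in ddm1-2 rdr6-15, 3.53 and 4.47 in rdr6-15, and a mean of 4.97 in Col-0. Both Col-0 arrays were the highest, and 0 of the 8 had an unadjusted p under 0.05 in ddm1-2 against Col-0. In rdr6-15 against Col-0, 2 of the 8 had one, against 9.98% of all probe sets.

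The 14 metabolic genes had a median of -0.17 and a range from -0.59 to 0.40. GME, the GDP-mannose epimerase of ascorbate synthesis, read 8.16 and 8.03 in ddm1-2 and 8.26 and 8.20 in ddm1-2 rdr6-15, against 8.24 and 8.32 in rdr6-15 and 8.30 and 8.20 in Col-0. ALN, the allantoinase of purine breakdown, read 4.27 and 4.41 in ddm1-2 and 4.55 and 4.42 in ddm1-2 rdr6-15, against 4.06 and 4.33 in rdr6-15 and 5.02 and 4.85 in Col-0. The genotypes overlapped or nearly so for GME, and ALN was highest on both Col-0 arrays, with a difference of -0.59 ± 0.17 (SE, limma adjusted p = 0.334). ATPC1, the gamma subunit of the chloroplast ATP synthase, differed by 0.26 (limma adjusted p = 0.907).

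The 11 probe sets for transcription and nuclear genes had a median of -0.12, and 3 of them exceeded the control level. DAYSLEEPER, a protein derived from a domesticated transposase, read 5.43 and 6.31 in ddm1-2 and 5.64 and 5.74 in ddm1-2 rdr6-15, against 5.02 and 6.01 in rdr6-15 and 5.29 and 5.78 in Col-0. The genotypes overlapped, and the difference was 0.34 ± 0.41 (SE, limma adjusted p = 0.875). HDA7, a histone deacetylase, and the MADS-box genes AGL79 and AGL89 stayed under the control level on every genotype mean. The 7 redox genes had a median of 0.28 and the 3 genes of growth and ribosome assembly, YAO, PCN and MAK10, had a median of 0.21. In ddm1-2 against Col-0, 0 of 7 and 0 of 3 had an unadjusted p under 0.05. In rdr6-15 against Col-0, where rdr6-15 replicate 1 takes part, the redox median was 1.11. There 2 of the 7 redox genes had an unadjusted p under 0.05, against 9.98% of all probe sets. The redox median without that array is not given. On it and on the other rdr6-15 array MSRB6 read 5.82 and 2.80, against 2.55 and 3.10 in Col-0. MSRB5 read 5.85 and 3.13, against 3.40 and 3.34, and GSTU27 read 7.91 and 5.10, against 4.69 and 4.47.

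Lists of loci written from general knowledge found few members, and none of their members was called in ddm1-2 against Col-0 with all arrays. For 6 of 11 loci listed as ribosomal, which the tables used here leave unnamed, the differences were all above 0, with a median of 0.54 against -0.01 for all probe sets and limma adjusted p of 0.561 or more. AT5G27820 was the highest of them, at 4.22 and 4.95 in ddm1-2 and 4.32 and 4.81 in ddm1-2 rdr6-15, against 4.34 and 4.19 in rdr6-15 and 3.57 and 4.13 in Col-0. Among these 6, AT5G35530 was the lowest, with a difference of 0.19. For AT5G27820 both ddm1-2 arrays lay above both Col-0 arrays, while ddm1-2 rdr6-15 and rdr6-15 overlapped. Lists of cell wall, defence, flower and chromatin genes had 7, 6, 5 and 3 members with medians of -0.08, 0.12, 0.04 and 0.17.

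A stretch of chromosome 2 from AT2G07660 to AT2G07819 carries a copy of the mitochondrial genome, and 28 of the probe sets lie there. Since the copy and the mitochondrial genes are nearly identical, which of them the signal comes from cannot be told apart. Of the 28, 8 exceeded the control level, 0 were called, and their differences of ddm1-2 minus Col-0 ran from -0.34 in AT2G07714 to 0.42 in AT2G07773, with a median of 0.03. The median signal of the 28 per array was 2.88 and 2.82 in ddm1-2 and 3.08 and 2.91 in ddm1-2 rdr6-15, against 3.36 and 2.95 in rdr6-15 and 2.92 and 2.93 in Col-0. The highest was on rdr6-15 replicate 1.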

How the data were processed

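For 8 ATH1 arrays the authors deposited one log2 signal for each probe set, made with RMA per the submitters' processing notes. Its version is not given in the sources used here. Of 22810 probe sets, 64 controls were left out. Genes came from the platform's annotation, with 13513 probe sets paired with 1 gene, 503 with several and 8794 with none, and loci, biotypes and gene order from the TAIR10.1 reference table. Genomic positions and sequences are not used here.

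The linear model of limma 3.58.1 (R 4.3.3) had one mean for each genotype and used 8 arrays at once, which gave 4 residual and 2.82 prior degrees of freedom. P-values are two-sided, adjusted by Benjamini-Hochberg over 22746 probe sets, with a threshold of 0.05. The script was tested on simulated data. With 2 arrays per genotype, replication and spread limit the precision.

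Named genes were members called, otherwise the 3 with the smallest p per comparison, the extremes of each list, the 5 widest gaps and the 5 largest interactions; others were chosen after their values were seen. The members and lists were chosen with earlier results of these data known. Of the photosynthesis, ubiquitin, pollen, nitrogen and sulfur lists, 1 member each was found (ATPC1, UBC31, CHX15, ALN), with differences of ddm1-2 minus Col-0 of 0.26, -0.44, -0.44 and -0.59. The alternatives were array weights, a trended robust variance, the replicate number as a block, quantile normalization, a fit to the compared genotypes alone, an adjusted p under 0.01, another control level, and leaving out single arrays, dim probe sets or shared ones.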

Additional observations from a re-analysis of the deposited data

How the results depend on the processing

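Deviations of same-numbered arrays correlated at 0.42 between ddm1-2 and ddm1-2 rdr6-15 and at -0.06 to 0.15 between the other pairs of genotypes. A replicate effect shared by ddm1-2 and ddm1-2 rdr6-15 alone was not tested. With the replicate number as a block, 0 members were called in all 7 comparisons. Array weights were equal within each genotype, at 0.298 for both rdr6-15 arrays and 1.45 to 1.54 for the other arrays. They thus weighted rdr6-15 replicate 2 down as much as replicate 1. For ddm1-2 against Col-0, 22 were called with only the genotypes compared (3.76%, against 5.77% of all probe sets), 3 with a trended robust variance (0.513%, against 0.813%) and 11 with array weights (1.88%, against 2.83%). For ddm1-2 rdr6-15 against Col-0 those counts were 11, 1 and 10 (against 3.1%, 0.466% and 2.44% of all), and for the averaged effect 1 was called after quantile normalization, without dim probe sets and with a trended robust variance (against 0.51%, 0.837% and 0.585% of all). Leaving out each array in turn gave 0 to 20 calls for ddm1-2 against Col-0, 0 to 81 for ddm1-2 rdr6-15 against rdr6-15, 0 to 65 for the averaged effect, 0 to 87 for rdr6-15 against Col-0, 0 to 12 for ddm1-2 rdr6-15 against Col-0 and 0 to 62 for the interaction. The highest counts that involve rdr6-15 come from leaving out rdr6-15 replicate 2, which leaves the array that stands apart as the only one of its genotype. In that fit 13.8% of members and 21.7% of all probe sets were called for ddm1-2 rdr6-15 against rdr6-15, 11.1% and 18.2% for the averaged effect, 14.9% and 23.8% for rdr6-15 against Col-0, and 10.6% and 16.8% for the interaction. The number of members with the 4 ddm1-2 arrays apart was 13 without dim probe sets, where fewer probe sets are left, and 35 to 63 with each array left out, where 7 arrays separate more easily. With the second highest control mean as the level, 404 members exceeded it. Signs turned for 4 single values when an array was left out. In ddm1-2 against Col-0, BZIP60 ran from -0.25 to 0.056 (positive without Col-0 replicate 2), DAYSLEEPER from -0.10 to 0.78 and HDA7 from -0.27 to 0.032 (both turned without ddm1-2 replicate 2), and the interaction of AT4G04460 ran from -0.27, without rdr6-15 replicate 1, to 4.66. Of the other single values, 590 kept sign and side of the threshold and 64 passed it. For members at or below the control level in every genotype no fold can be given.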
